A study of Mus musculus with 24 samples.

Results

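Activated B cells and activated CD4 T cells of wild-type (WT) mice were compared across all expressed genes, to describe the programmes that these lymphocytes ran in culture. The libraries were chosen by their titles alone: 3 WT B cell libraries and 3 WT CD4 T cell libraries, 6 of the 24 libraries of a study that set miR-155 knockout (KO) against WT cells in B cells, CD4 T cells, dendritic cells and macrophages. All mice were of the C57BL/6J strain. The B cells came from spleen, were obtained by removing cells with CD43 on their surface, and were cultured with LPS at 25 ug/ml and mouse interleukin 4 (IL-4) at 6.5 ng/ml. The T cells came from lymph node and spleen, were selected as CD4+CD25-CD44- cells, which are cells with little sign of earlier activation, and were cultured with Dynabeads Mouse T-Activator CD3/CD28, beads that carry antibodies to the T cell receptor complex and to its partner CD28. Both cultures were in RPMI medium with serum. The age and sex of the mice, the time in culture and the number of animals were not given in the sources used here. The 3 libraries of a group are called sequencing replicates, with no separate animals or cultures named, so the p-values reflect how these libraries varied, and that variation may be technical.

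A B cell takes up antigen through its surface immunoglobulin, whose signal passes through CD79A and CD79B, and presents peptides of that antigen to T cells on MHC class II. LPS acts on B cells through TLR4 and its relatives RP105 and MD-1, and IL-4 acts through STAT6 to steer the immunoglobulin class switch. A CD4 T cell reads peptide on class II with a receptor that signals through the CD3 chains, LCK and ZAP70, and calcium and MAP kinase signals then switch on NFAT, AP-1, EGR and NR4A factors. CD28 adds a second signal, and the activated T cell makes IL-2, shows CD40 ligand and ICOS to B cells, and takes up much glucose. Both cells divide quickly once activated.

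What differed along with the cell type has to be set before the results. The stimulus and the organ differed as above, and they cannot be told apart from the cell type. The mice's sex chromosomes differed too: the Y-linked genes Ddx3y, Eif2s3y, Kdm5d and Uty had 0 or 1 count each in every WT B library and 461 to 1386 counts each in every WT T library. The KO libraries showed the same split, with 0 or 1 count in B cells and 302 to 1421 counts in T cells. So sex and cell type cannot be told apart in either genotype, and the Y-linked genes are not counted here as part of a T cell programme. Of their X-linked partners, Kdm6a (log2 fold change 0.65) and Eif2s3x (0.36) were higher in B cells and Ddx3x and Kdm5c did not pass the test. Among the libraries, the third WT T library stood apart in interferon and cytotoxic genes, and values that rest on it are given below. The genes that the cell selection used (Cd4, Il2ra, which encodes CD25, and Cd44) cannot count as findings in the same way as the rest.

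The libraries held 9152770 to 10948168 gene counts in B cells and 9326662 to 9653931 in T cells. The log2 CPM of libraries of 1 group correlated across genes at 0.992 to 0.997, and of libraries of different groups at 0.82 to 0.828. Libraries of a group were no copies of each other, since the chi-square of their counts per gene was 2.34 to 6.33, above that of sampling alone. Levels are CPM, which are counts scaled to the library's total with TMM factors. They are given as the values of replicates 1, 2 and 3 in that order, or as the mean ± SD over the 3 libraries (n = 3), where of a pair joined by "against" the first is B and the other is T. Fold changes are log2 values coded as B minus T, so a positive value means higher in B cells, with a standard error (SE). A gene was called at an edgeR quasi-likelihood adjusted p under 0.05.

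The labels held against the defining markers. The summed level of 10 B cell markers was 4957 to 5205 CPM in B libraries and 36.6 to 56.5 CPM in T libraries. The summed level of 10 T cell markers was 63.8 to 73.0 CPM in B libraries, where Cd3e, Cd3g and Trat1 were at 0 counts, and 2422 to 2569 CPM in T libraries. Macrophage and monocyte markers (15 genes) summed to 17.3 to 23.6 CPM in B and 6.63 to 9.53 CPM in T libraries, with C1qa, C1qb, C1qc and Cd163 at 0 in B. Natural killer cell markers (7 genes) summed to 0.335 to 0.662 CPM in B and 10.5 to 32.9 CPM in T libraries, with Ncr1, Klrb1c and Klra8 at 0 in T. CD8 markers (Cd8a and Cd8b1) stayed at 5.36 to 6.42 CPM in T libraries. The part of such other cells in the results was not tested beyond the values given beside them. In bulk RNA, fewer cells of a type and less RNA per cell cannot be told apart.

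Most expressed genes differed between the activated lymphocytes, and most by little. Of 10576 genes tested, 7355 were called (69.5%), 3599 of them higher in B cells (34%) and 3756 higher in T cells (35.5%). At a change of 2-fold or more, 2528 genes were called (23.9%), 1094 higher in B (10.3%) and 1434 higher in T (13.6%). The 3 B and 3 T values did not overlap in 7841 genes (74.1%). The median size of the log2 fold change was 0.41 over all genes tested and 0.64 over called genes. Calls of 32-fold or more numbered 209 in B cells and 305 in T cells. The genes 2-fold higher in B cells took 9.57% of the CPM of B libraries, and those 2-fold higher in T cells took 10.4% of the CPM of T libraries.

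**Figure D1:**
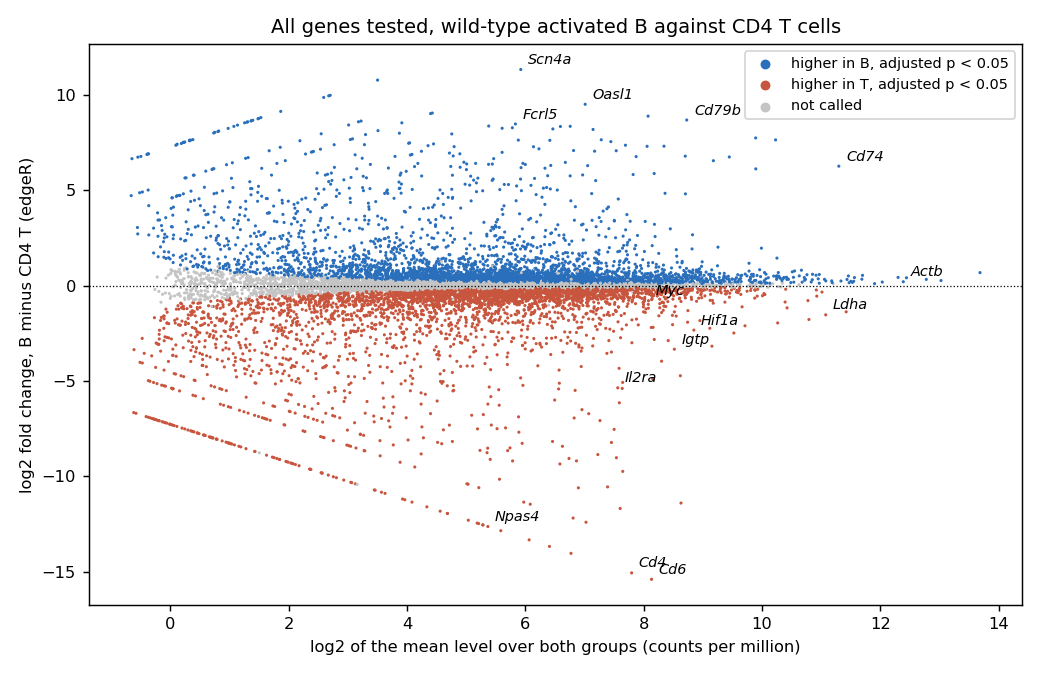
Each point is 1 of 10576 genes, with the log2 of its mean level over both groups (CPM) on the x axis and its log2 fold change, B minus T, on the y axis, and colours show the 3599 genes called higher in B and the 3756 called higher in T. The antigen receptor genes lie at the edges, Cd79b at 8.68 and Cd4 at -15.07, while Actb and Myc lie near the middle; values of genes with 0 counts in a group depend on the fit's prior count.

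Lists of genes with known roles were then read against this background, with 34% of all genes called higher in B and 35.5% higher in T. The plot of 24 lists orders them by their median.

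**Figure D2:**
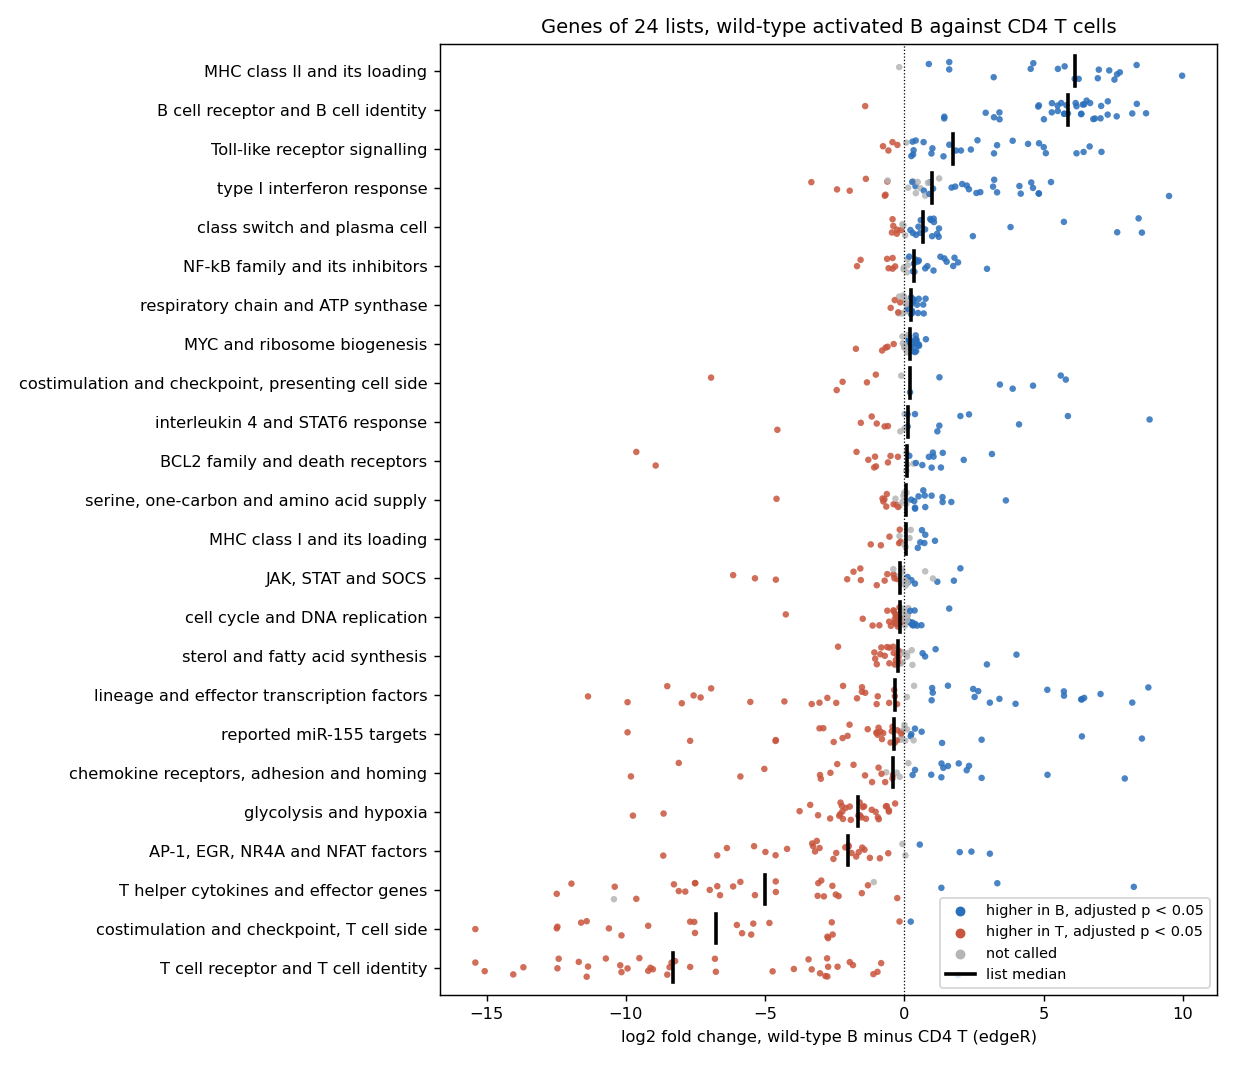
Each point is a tested gene of 1 of 24 lists (rows), placed by its log2 fold change, B minus T, on the x axis, in blue where called higher in B, in red where called higher in T and in grey where not called, and the black lines are list medians. MHC class II (median 6.12) and B cell identity (5.87) stand at one end, T cell identity (-8.29) at the other, and cell cycle (-0.15) and MHC class I (0.05) near 0.

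The 12 genes highest in B cells against T cells were of several kinds. Scn4a, a voltage-gated sodium channel known from skeletal muscle, stood at 124, 106 and 134 CPM in the B libraries and 0, 0 and 0.104 CPM in the T libraries, and had 1 count over all T libraries. Its level was 3519-fold (95% exact counting interval 631 to 139000) higher in B cells. Oasl1, an interferon-induced inhibitor of Irf7 translation, stood at 238, 251 and 284 CPM in the B libraries and 0, 0 and 1.04 CPM in the T libraries, so its T counts came only from the third T library. Bcar3, an adaptor that binds p130Cas, stood at 556, 550.2 and 509 CPM in the B libraries and 1.45, 0.909 and 1.04 CPM in the T libraries (log2 fold change 8.88, SE 0.10, edgeR adjusted p = 1.6e-17). Cd79b, Fcrl5, Siglecg and Fcmr, a B cell receptor chain, an Fc receptor-like protein, an inhibitory lectin and the IgM Fc receptor, had log2 fold changes of 8.68, 8.47, 8.35 and 8.27. Plbd1, Ctsh, a lysosomal protease, Lmo2, a transcription cofactor, Kctd14 and the calcium channel gene Cacna1i completed the 12, at 8.36, 8.34, 8.24, 9.04 and 9.01. All 12 were also higher in KO B cells than in KO T cells, Scn4a by 9.28 and Bcar3 by 7.99.

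The genes highest in T cells had no counts at all in B libraries, with the exception of Cd3d, which had 1. Cd6, a scavenger receptor-like partner of the T cell receptor, stood at 513, 609.5 and 562 CPM in T cells, at least 5365-fold above the limit that 0 counts in the B libraries allows (3 counts over the group). Cd4 stood at 436, 452 and 446 CPM (at least 4248-fold higher), and the CD3 chain genes Cd3g and Cd3e at 215, 223 and 218 CPM and 168, 168 and 173 CPM (at least 2087-fold and at least 1621-fold higher). Nrn1, neuritin, stood at 129, 154 and 118 CPM, and Angptl2, an angiopoietin-like secreted protein, at 113, 91.5 and 84 CPM. Npas4, an immediate early transcription factor best known from neurons, stood at 99.4, 81.2 and 66.9 CPM. Fam71b was the least even of these between T libraries, at 52.1, 75.9 and 106 CPM, and its edgeR call (adjusted p = 0.011) was lost without the second T library. Cd40lg and Icos, the help signals to B cells, stood at 81, 76.2 and 64.9 CPM and 80.9, 75.1 and 62.4 CPM. Ddx3y, one of the Y-linked genes named above, was the only other gene of these 12. Over all genes, 71 had 0 counts in every B library and at least 100 in T libraries, and 18 had the reverse.

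The B cell receptor and B cell identity genes were almost uniformly higher in B cells. Of 37 tested, 36 were higher in B, all by 2-fold or more, and 1 was higher in T, with a median log2 fold change of 5.87, against -0.003 over all genes. Cd79a, the other signal chain of the B cell receptor, stood at 479, 531 and 579.9 CPM in the B libraries and 3.31, 2.93 and 3.83 CPM in the T libraries (log2 fold change 7.30, SE 0.11, edgeR adjusted p = 1.2e-15). Ms4a1, which encodes CD20, stood at 645, 609 and 683 CPM in the B libraries and 3.31, 3.64 and 5.28 CPM in the T libraries. The groups were far apart in every library, and the third T library had the highest level of both genes within T cells. The adaptor Blnk and the kinase Btk differed in degree, with log2 fold changes of 7.06 and 3.42, and T libraries held 23.9 ± 2.65 CPM of Btk. The transcription factors that hold B cell identity, Pax5 and Ebf1, stood at 286 ± 10.2 against 2.16 ± 1 CPM and 66.2 ± 2.14 against 1.24 ± 0.814 CPM on average in B and T cells. Siglecg (8.35), Bcl11a (8.18) and Fcgr2b (7.62), an inhibitory lectin, a transcription factor and the inhibitory IgG receptor, had the largest other changes. Bach2, a repressor that delays plasma cell formation and also restrains effector T cells, was the exception, at 101, 98.7 and 78.3 CPM in the B libraries and 242, 259.9 and 235 CPM in the T libraries (log2 fold change -1.41, SE 0.09, edgeR adjusted p = 5.4e-08).

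**Figure D3:**
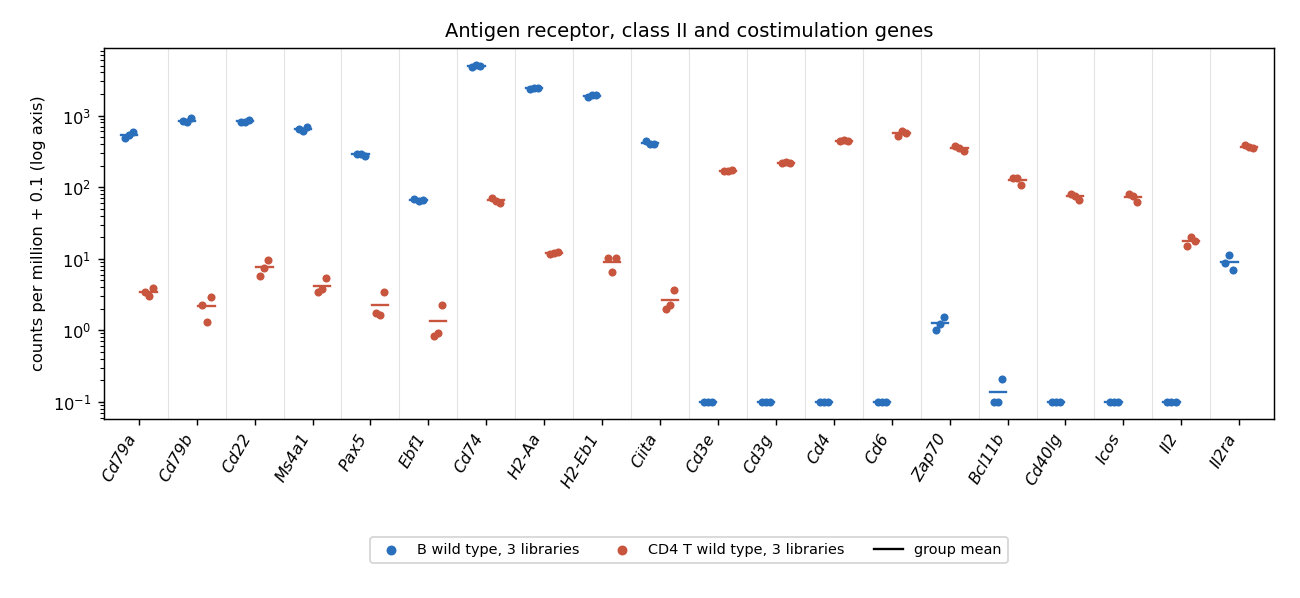
Each point is the level of a gene in 1 library, as CPM + 0.1 on a log axis, for 10 genes of B cell identity and class II and 10 of T cell identity and help, and the short lines are group means. The B and T points are apart for all 20 genes, and points at the bottom line, such as Cd3e, Cd4 and Il2 in B cells, are libraries with 0 counts.

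MHC class II genes and their loading machinery formed the other large block of B cell genes. Of 19 tested, 18 were higher in B cells, 17 by 2-fold or more, with a median log2 fold change of 6.12 and no gene higher in T. H2-Aa, an alpha chain of the I-A class II molecule, stood at 2354, 2418 and 2400.3 CPM in the B libraries and 11.7, 12 and 12.3 CPM in the T libraries (log2 fold change 7.63, SE 0.06, edgeR adjusted p = 2e-19). H2-Ab1, its beta chain, stood at 1806, 1976 and 1854 CPM in the B libraries and 27.1, 22.9 and 31.3 CPM in the T libraries, and H2-Eb1, the I-E beta chain, at 1807, 1916 and 1960.5 CPM in the B libraries and 10.1, 6.37 and 10.2 CPM in the T libraries. Cd74, the invariant chain that guards the groove, stood at 4809, 5139 and 4985 CPM in the B libraries and 70.9, 64.7 and 59.7 CPM in the T libraries. The master activator Ciita, without which class II genes are silent, stood at 443, 395 and 395 CPM in the B libraries and 1.86, 2.12 and 3.52 CPM in the T libraries (log2 fold change 7.35, SE 0.12, edgeR adjusted p = 1.5e-14). The peptide editors H2-DMb1, H2-DMb2 and H2-Ob had log2 fold changes of 6.98, 7.54 and 5.75, and the protease Ctsh 8.34. March1, a ubiquitin ligase that removes class II from the surface, stood at 13.4, 12.7 and 12.9 CPM in B cells and had 0 counts in T cells (at least 126-fold higher). The subunits of the RFX factor, which binds the class II X box, were present in both cells: Rfx5 was higher in B at 68.8 ± 2.71 against 22.5 ± 1.38 CPM and Rfxank at 10 ± 0.716 against 5.44 ± 0.899 CPM, and Rfxap was not called (15.9 ± 2.15 against 18.1 ± 1.79 CPM). In T libraries H2-Aa, H2-Eb1, Cd74 and H2-Ab1 stood at 0.503, 0.469, 1.31 and 1.44% of their B level, where the summed B cell markers stood at 0.888% of theirs. Other members lay on both sides of that share: Ciita, H2-DMb2 and Ctsh at 0.61, 0.534 and 0.304%, and H2-Ob, H2-DMa and Ctss at 1.85, 4.31 and 32.8%. Whether B cells in the T culture gave those reads was not tested. In KO cells the same difference was 6.53 for H2-Aa and 6.04 for Ciita.

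The promoters of these genes are shown because members of the list moved together. RefSeq windows of GRCm38.p6, from 250 bases before to 50 after a gene's start, were found for 13 of the 19 genes (15 windows). The sequences are shown 5′ to 3′ on the gene's strand, and capitals mark a stretch of the X box (AACNNATG) and the Y box core (GATTGG, which is the CCAAT box read from the other strand), matched on either strand. The whole window of H2-Eb1 (chr17:34305617-34305916, plus strand) holds both, and a further Y box core in the other direction. That of H2-Aa (chr17:34287774-34288073, minus strand) holds the Y box core and no match to these X box letters. Other forms of the X box were not searched, so a missing match does not mean that an X box is absent.
H2-Eb1: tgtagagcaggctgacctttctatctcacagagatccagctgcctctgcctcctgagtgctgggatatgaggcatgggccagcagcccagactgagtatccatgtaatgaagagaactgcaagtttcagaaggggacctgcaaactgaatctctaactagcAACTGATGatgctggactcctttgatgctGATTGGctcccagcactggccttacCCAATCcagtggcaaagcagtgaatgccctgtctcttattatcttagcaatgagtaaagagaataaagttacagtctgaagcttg
H2-Aa: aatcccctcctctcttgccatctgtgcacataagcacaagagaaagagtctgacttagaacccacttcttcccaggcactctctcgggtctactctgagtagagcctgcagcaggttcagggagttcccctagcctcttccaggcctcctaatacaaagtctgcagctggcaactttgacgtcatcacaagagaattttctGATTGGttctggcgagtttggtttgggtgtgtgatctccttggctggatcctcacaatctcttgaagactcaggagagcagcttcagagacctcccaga
Shorter stretches show the X stretch followed by the Y core in the genes of the peptide editors and of a further beta chain: H2-DMb1 (chr17:34153084-34153149, plus strand), H2-DMb2 (chr17:34145113-34145178, plus strand), H2-Ob (chr17:34238805-34238867, plus strand) and H2-Eb2 (chr17:34325530-34325594, plus strand).
H2-DMb1: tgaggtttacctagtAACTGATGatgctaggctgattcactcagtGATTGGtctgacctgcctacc
H2-DMb2: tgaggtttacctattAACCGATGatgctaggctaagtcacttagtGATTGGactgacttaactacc
H2-Ob: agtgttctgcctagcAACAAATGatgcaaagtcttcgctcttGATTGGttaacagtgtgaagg
H2-Eb2: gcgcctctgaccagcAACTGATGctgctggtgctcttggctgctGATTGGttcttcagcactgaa
A Y box core stood in 10 of 15 class II windows and in 16.1% of all 32851 windows. The X stretch followed by a Y core 10 to 40 bases downstream on the same strand stood in 5 of 15 class II windows and in 32 of all windows (0.0974%). These 5 genes, H2-Eb1, H2-Eb2, H2-DMb1, H2-DMb2 and H2-Ob, were all higher in B cells, with log2 fold changes of 7.74, 6.94, 6.98, 7.54 and 5.75. So were 18 of the 19 genes of the list, and no member was higher in T. The share of windows with the pair therefore does not bear on the difference between B and T cells. The letters and the spacing were chosen after class II windows had been looked at, and a match is a description of the sequence, not a binding site.

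The T cell receptor and T cell identity genes mirrored the B cell list. Of 40 tested, 39 were higher in T cells, 37 by 2-fold or more, and 1 was higher in B. The median log2 fold change was -8.29, or -7.05 with genes at 0 counts in B set to their bound. The receptor kinase Zap70 stood at 0.893, 1.13 and 1.43 CPM in the B libraries and 375, 353 and 321 CPM in the T libraries (log2 fold change -8.23, SE 0.12, edgeR adjusted p = 1.6e-16), and the adaptor Lat at 0.67, 0.66 and 0.772 CPM in the B libraries and 357, 369 and 388 CPM in the T libraries. Zap70 and Lat were below 2 CPM in every B library. Lck, the kinase that starts the signal, was less exclusive, at 38.2, 38.1 and 37.6 CPM in the B libraries and 572, 589 and 619.9 CPM in the T libraries (log2 fold change -3.97, SE 0.06, edgeR adjusted p = 1.4e-16). Cd3d had 1 count over all B libraries and 256, 264 and 261 CPM in T libraries. Cd247, the zeta chain, and the transcription factors Bcl11b and Tcf7 averaged 0.606 ± 0.256 against 67.7 ± 9.42 CPM, 0.0368 ± 0.0637 against 126 ± 16.6 CPM and 0.274 ± 0.0895 against 107 ± 11.9 CPM in B and T cells. Cd5, an inhibitory co-receptor, averaged 0.279 ± 0.0538 against 793 ± 33.4 CPM, and Cd28 0.18 ± 0.235 against 110 ± 1.48 CPM. Cd2 and Thy1, surface proteins of T cells, were present at 50.9 ± 4.82 CPM and 16.5 ± 4.09 CPM in B libraries, in which Cd3e and Cd3g were at 0 counts. Malt1, a protease on the way from antigen receptors to NF-kB, was also higher in T cells, at 102, 107 and 88.4 CPM in the B libraries and 276, 287 and 320.1 CPM in the T libraries, and its partner Bcl10 was not called, at 44.2 ± 2.86 against 45.2 ± 1.57 CPM.

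Of the genes for contact between B and T cells, those of the T cell side were nearly all higher in T cells, and those of the presenting side fell on both sides. Of 22 T cell side genes tested, 21 were higher in T cells, 20 by 2-fold or more, and 1 was higher in B, with a median of -6.77. Tnfrsf4 (OX40) and Tnfrsf9 (4-1BB), receptors that prolong T cell responses, averaged 1.91 ± 0.147 against 360.5 ± 17.8 CPM and 0.143 ± 0.173 against 238 ± 38.4 CPM. The checkpoint receptors Ctla4 and Pdcd1 averaged 0.557 ± 0.218 against 118 ± 11.6 CPM and 1.48 ± 0.182 against 84 ± 7.6 CPM. Slamf6 was the gene higher in B, by 0.23, and its call was lost under 4 of 13 alternative settings. Of 13 presenting side genes tested, 7 were higher in B, 5 in T and 1 was not called, with a median of 0.21, which was 0.66 to 0.89 without the second B library or any single T library. Cd40, the receptor of CD40 ligand, stood at 147, 138 and 135 CPM in the B libraries and 1.35, 3.13 and 4.04 CPM in the T libraries (log2 fold change 5.61, SE 0.17, edgeR adjusted p = 7e-10). Cd86, a ligand of CD28 and CTLA-4, stood at 44.7, 59.9 and 44.8 CPM in the B libraries and 1.45, 1.11 and 3.52 CPM in the T libraries, and Cd83 averaged 246 ± 10.4 against 4.41 ± 0.459 CPM. Icosl, the ligand of ICOS, averaged 8.31 ± 1.02 against 0.551 ± 0.366 CPM. Cd80, the other CD28 ligand, was instead higher in T cells, at 3.35, 2.17 and 5.07 CPM in the B libraries and 7.04, 6.16 and 13.4 CPM in the T libraries (log2 fold change -1.34, SE 0.40, edgeR adjusted p = 0.018), a call lost without the first B library and with no filter on low counts. Tnfsf4, the ligand of OX40, was also higher in T cells, at 0.111 ± 0.112 against 14.4 ± 1.67 CPM, as were Cd274, which encodes PD-L1, at 12.6 ± 0.939 against 58.6 ± 4.55 CPM, and Pvr, a ligand of TIGIT and CD226, at 7.41 ± 0.588 against 40.1 ± 5.11 CPM.

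Cytokines and effector genes were mostly higher in T cells, with much spread between T libraries. Of 32 tested, 27 were higher in T, 26 by 2-fold or more, 3 were higher in B, and 16 listed genes, among them Ifng, Il4, Il21 and Il17a, were below the filter. The median was -4.99, or -4.73 with genes at 0 counts set to their bound. Il2, the growth factor of activated T cells, stood at 14.8, 20 and 17.6 CPM in T cells and had 0 counts in B cells (at least 167-fold higher in T). Il2ra, the high-affinity receptor chain, stood at 8.49, 11.2 and 6.84 CPM in the B libraries and 392, 369 and 347 CPM in the T libraries (log2 fold change -5.36, SE 0.11, edgeR adjusted p = 4.3e-12), although CD25-bearing cells had been removed before culture. Il2rb, the signal chain, averaged 5.37 ± 0.588 against 379.8 ± 33.4 CPM. Gzmb, a cytotoxic protease, stood at 0.67, 0.283 and 0.551 CPM in the B libraries and 52.3, 69.4 and 152 CPM in the T libraries, and Il12rb2, the IL-12 receptor chain of type 1 helper cells, at 0.558, 0.188 and 0.441 CPM in the B libraries and 55.7, 95.8 and 217 CPM in the T libraries. Both were highest in the third T library, and without it their log2 fold changes went from -7.51 to -6.92 and from -8.27 to -7.58. Lif stood at 31.9, 48.5 and 73.7 CPM in T cells with 0 counts in B (log2 fold change -11.95, SE 1.60, edgeR adjusted p = 0.018, a call lost without the second T library). Nkg7, a granule protein, had 0 counts in B and 7.14, 14.5 and 31.8 CPM in T cells, and was not called (edgeR adjusted p = 0.064). Tnf, Lta and Ltb were made by both cells and were higher in T, at 12.7 ± 1.35 against 31.6 ± 2.96 CPM, 6.68 ± 0.356 against 53.1 ± 6.48 CPM and 40.6 ± 9.33 against 300 ± 31 CPM. The genes higher in B cells were Il10, at 3.24, 2.83 and 5.73 CPM with 0 counts in T, Ifngr2, the signal chain of the interferon gamma receptor, at 141, 126 and 132 CPM in the B libraries and 18.2, 11.1 and 10.2 CPM in the T libraries, and Ccl5, at 6.16 ± 1.36 against 2.44 ± 1.25 CPM. Ifngr1, the binding chain, averaged 35.2 ± 1.13 against 42 ± 1.98 CPM.

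Immediate early factors of antigen receptor signalling were higher in T cells. Of 31 AP-1, EGR, NR4A and NFAT genes and their regulators tested, 25 were higher in T, 23 by 2-fold or more, and 4 in B, with a median of -2.01. Nr4a1, an orphan nuclear receptor that tracks receptor signal strength, stood at 9.05, 8.104 and 10.7 CPM in the B libraries and 387, 402 and 379 CPM in the T libraries (log2 fold change -5.40, SE 0.08, edgeR adjusted p = 1.8e-16). Nr4a2 and Nr4a3 averaged 0.243 ± 0.118 against 104 ± 11.7 CPM and 2.54 ± 0.434 against 267 ± 53.7 CPM. All NR4A genes were apart in every library. Egr1 and Egr2 averaged 17.7 ± 1.76 against 146 ± 13.8 CPM and 16.2 ± 1.895 against 88.2 ± 6.47 CPM, and Fos 0.274 ± 0.143 against 7.19 ± 1.201 CPM. The MAP kinase phosphatase Dusp6 and the EGR repressor Nab2 averaged 7.59 ± 0.388 against 141 ± 8.25 CPM and 23.2 ± 1.18 against 225 ± 8.64 CPM. Nfatc1 and Nfatc2 averaged 93 ± 10.3 against 265 ± 10.5 CPM and 9.903 ± 0.94 against 57.7 ± 2.46 CPM. The genes higher in B cells were Batf, the AP-1 partner needed for class switching, at 80.3, 93.4 and 70.1 CPM in the B libraries and 8.39, 10.3 and 10.4 CPM in the T libraries (log2 fold change 3.07, SE 0.12, edgeR adjusted p = 1.3e-10), Jun at 34.4 ± 1.99 against 8.67 ± 1.46 CPM, Jund at 498 ± 14.7 against 339.6 ± 66 CPM, a call lost without any of 3 single libraries (B 2, B 3 or T 2), and the calcineurin subunit Ppp3ca at 94.9 ± 4.17 against 17.9 ± 3.48 CPM.

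Glycolysis and hypoxia genes were higher in T cells without exception. All 31 tested were called higher in T cells (30 by DESeq2), 24 by 2-fold or more, with a median log2 fold change of -1.65, where 35.5% of all genes were called in that direction. Slc2a1, the main glucose transporter of activated T cells, stood at 51.3, 48.1 and 50.5 CPM in the B libraries and 230, 243 and 269 CPM in the T libraries (log2 fold change -2.31, SE 0.07, edgeR adjusted p = 2.3e-13). Along the pathway, the enzymes averaged 153 ± 7.65 against 459 ± 38.5 CPM for Hk1, 194 ± 14.8 against 918 ± 131 CPM for Pfkp, 845 ± 42.4 against 1905 ± 121 CPM for Aldoa, 315 ± 10.8 against 1364 ± 43.4 CPM for Tpi1 and 179 ± 6.04 against 678 ± 47.1 CPM for Pgk1. Pkm, which makes pyruvate, stood at 1475, 1543 and 1564 CPM in the B libraries and 3754, 3949 and 4202 CPM in the T libraries, and Ldha, which turns it to lactate, stood at 1076, 1144 and 1105 CPM in the B libraries and 3079, 3093 and 3477 CPM in the T libraries (log2 fold change -1.54, SE 0.05, edgeR adjusted p = 1.2e-12). Slc16a3, the lactate exporter MCT4, stood at 0.112, 0.66 and 0.551 CPM in the B libraries and 378, 375 and 448 CPM in the T libraries, a level under 1 CPM in each B library. The other exporter, Slc16a1, averaged 128 ± 1.92 against 198 ± 4.102 CPM. Hif1a, the hypoxia-inducible factor, stood at 157, 154 and 145 CPM in the B libraries and 747, 778 and 785 CPM in the T libraries (log2 fold change -2.34, SE 0.05, edgeR adjusted p = 6.9e-15). Its known targets Egln3, an oxygen sensor that marks it for breakdown, and Bnip3, a mitophagy receptor, were higher too: Egln3 stood at 0.335, 0.0942 and 0.11 CPM in the B libraries and 47.3, 76 and 102 CPM in the T libraries, and Bnip3 averaged 5.59 ± 0.639 against 76 ± 7.67 CPM. The smallest differences were those of Aldoc (-0.33), Gpi1 (-0.56), Gapdh (-0.56) and Slc16a1 (-0.63). Eno1 was listed at 0 in every library, and Hk3 and Car9 were below the filter. KO cells gave -2.25 for Slc2a1, -1.49 for Ldha and -9.08 for Slc16a3.

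**Figure D4:**
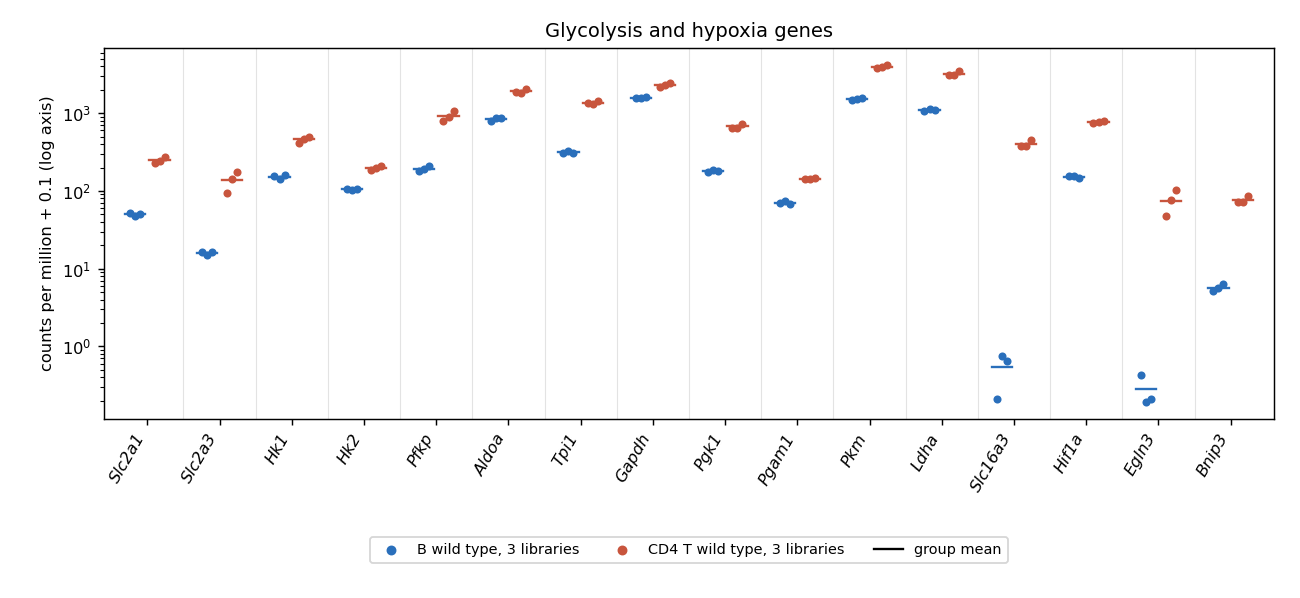
Each point is the level of a gene in 1 library, as CPM + 0.1 on a log axis, for 16 genes of glycolysis and the hypoxia response, and the short lines are group means. T cell points lie above B cell points for each gene shown, by a narrow margin for Gapdh (1577 ± 29.4 against 2319 ± 134 CPM) and by the widest for Slc16a3.

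The core of the hypoxia response element, ACGTG on either strand, was searched in the RefSeq windows of this list, tested or not. It stood in 27 of 45 windows (60%), from 24 of 31 genes with an entry, and in 19.6% of all windows. These stretches of Pgk1 (chrX:106186930-106186993, plus strand), Ldha (chr7:46845639-46845794, plus strand), Egln3 (chr12:54204079-54204123, minus strand) and Slc2a1 (chr4:119108689-119108733, plus strand) show it in capitals.
Pgk1: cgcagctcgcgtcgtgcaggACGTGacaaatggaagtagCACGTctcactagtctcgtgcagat
Ldha: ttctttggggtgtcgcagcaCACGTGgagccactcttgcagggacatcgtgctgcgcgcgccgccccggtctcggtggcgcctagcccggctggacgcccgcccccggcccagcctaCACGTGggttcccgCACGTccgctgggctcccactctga
Egln3: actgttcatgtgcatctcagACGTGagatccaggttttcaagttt
Slc2a1: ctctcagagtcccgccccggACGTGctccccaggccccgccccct
The 6 capitals CACGTG in the Ldha stretch hold the core on both strands and are also the E box that MYC binds, so the letters alone do not tell these factors apart. The log2 fold changes of Pgk1, Ldha, Egln3 and Slc2a1 were -1.92, -1.54, -8.64 and -2.31. The list was chosen for its known hypoxia genes and no tested member was higher in B. The share of windows with the core therefore does not bear on the difference between B and T cells. A match is a description of the sequence, not a binding site.

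Other metabolic genes were closer to equal than those of glycolysis and hypoxia. Of all genes, 34% were called higher in B and 35.5% higher in T. Of 31 respiratory chain and ATP synthase genes, 17 were higher in B cells, 4 in T cells and 10 were not called, none by 2-fold, with a median of 0.23 (0.15 with library totals in place of TMM, with 7 then higher in T). Cox4i1 stood at 511, 563 and 568 CPM in the B libraries and 334, 304 and 330.4 CPM in the T libraries, and Atp5b averaged 2796 ± 62.7 against 2375 ± 185 CPM. Of 29 genes of serine, folate-carbon and amino acid supply, 13 were higher in B and 9 in T, with a median of 0.07. Their median size was 0.51, against 0.41 over all genes. Phgdh and Shmt2, which make serine and glycine, averaged 434 ± 18.7 against 271 ± 9.15 CPM and 549 ± 26.6 against 331 ± 15.8 CPM. Slc7a3, a cationic amino acid transporter, averaged 44.3 ± 8.68 against 3.53 ± 1.64 CPM, and the glutamine transporter Slc1a5 went the other way, at 273 ± 9.72 against 449 ± 12.8 CPM. Of 34 sterol and fatty acid genes, 19 were higher in T and 5 in B, with a median of -0.24. The T cell count was 12 with all 24 libraries in the fit, and the B cell count was 8 without the second B library, which had the lowest level within B cells of 32 of the 34 genes. Elovl6, an elongase of fatty acids, stood at 2.57, 2.26 and 3.42 CPM in the B libraries and 14.5, 14.7 and 13.7 CPM in the T libraries. Scd1, a fatty acid desaturase, was the largest exception, at 327, 272 and 342 CPM in the B libraries and 12, 16.6 and 29.2 CPM in the T libraries (log2 fold change 4.02, SE 0.32, edgeR adjusted p = 0.00032), while its relative Scd2 averaged 252 ± 54.1 against 409.6 ± 70.7 CPM.

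Interferon-responsive genes split into a part that was higher in B cells and a part that was higher in T cells. Of 40 genes of the type I interferon list tested, 24 were higher in B, 19 by 2-fold or more, 7 were higher in T and 9 were not called, with a median of 0.98. Isg15, a ubiquitin-like modifier, stood at 216, 201 and 236 CPM in the B libraries and 6.21, 6.57 and 24.5 CPM in the T libraries (log2 fold change 4.13, SE 0.50, edgeR adjusted p = 0.0017), and differed by 5.09 without the third T library. Oas1a, which senses double-stranded RNA, and Rtp4 averaged 65 ± 11.8 against 1.68 ± 1.07 CPM and 47 ± 7.14 against 1.65 ± 0.559 CPM, and Ifit1 94.4 ± 2.54 against 5.21 ± 1.59 CPM. Irf7, the factor that amplifies interferon production, stood at 72.3, 76.3 and 99.8 CPM in the B libraries and 6.01, 5.56 and 13.2 CPM in the T libraries. The third T library stood above the other T libraries in Isg15, Irf7, Usp18 (5.59, 7.48 and 29.4 CPM) and Oas3 (25.4, 30.6 and 97.9 CPM), whose values in B cells were 26.8, 31.2 and 43 CPM and 59.4, 73.9 and 96.5 CPM. Without that library, 32 genes were higher in B, 7 in T and 1 was not called, with a median of 1.39, and Usp18 and Oas3 were not called with it (edgeR adjusted p = 0.18 and 0.46). Summed natural killer markers were also highest in that library. Their largest members there were Eomes (8.6, 14.85 and 17.1 CPM in the T libraries), which is also among the T cell factors below, and Klrk1 (0.518, 1.01 and 9.63 CPM). Ncr1, Klrb1c and Klra8 were at 0 in T. The part of natural killer cells in the result was not tested.

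The genes higher in T cells were of a different kind. Gbp2, a guanylate-binding protein that attacks the vacuoles of intracellular microbes, stood at 494, 469 and 546 CPM in the B libraries and 1764, 2282 and 1835 CPM in the T libraries (log2 fold change -1.96, SE 0.12, edgeR adjusted p = 1.3e-05). Igtp and Irgm2, are immunity-related GTPases with the same task: Igtp stood at 65.3, 62.5 and 70.3 CPM in the B libraries and 568, 685 and 751 CPM in the T libraries, and Irgm2 averaged 13.9 ± 1.02 against 74.1 ± 9.03 CPM. Ifi47 averaged 204 ± 4.61 against 531 ± 9.04 CPM. Beyond the list, both families were counted after their values had been seen. Of 11 guanylate-binding protein genes tested, 7 were higher in T, 3 in B and 1 was not called, with Gbp4 at 80.6 ± 4.62 against 338 ± 70.8 CPM, Gbp5 at 92.7 ± 6.999 against 388 ± 25.8 CPM and Gbp6 at 12.9 ± 1.97 against 159 ± 37.3 CPM. All 6 immunity-related GTPase genes tested were higher in T, Iigp1 at 0.223, 0.188 and 0.221 CPM in the B libraries and 247, 375 and 384 CPM in the T libraries. Gbp3 and Gbp2b were the members most clearly higher in B, at 345 ± 29.5 against 57.4 ± 11.8 CPM and 36.6 ± 5.62 against 2.22 ± 0.436 CPM. Members of these families are similar in sequence, and how reads shared between them were counted was not given in the sources used here, so the level of a single member is uncertain. Irf1, also chosen after its values were seen, averaged 57.2 ± 2.57 against 271 ± 36.1 CPM.

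**Figure D5:**
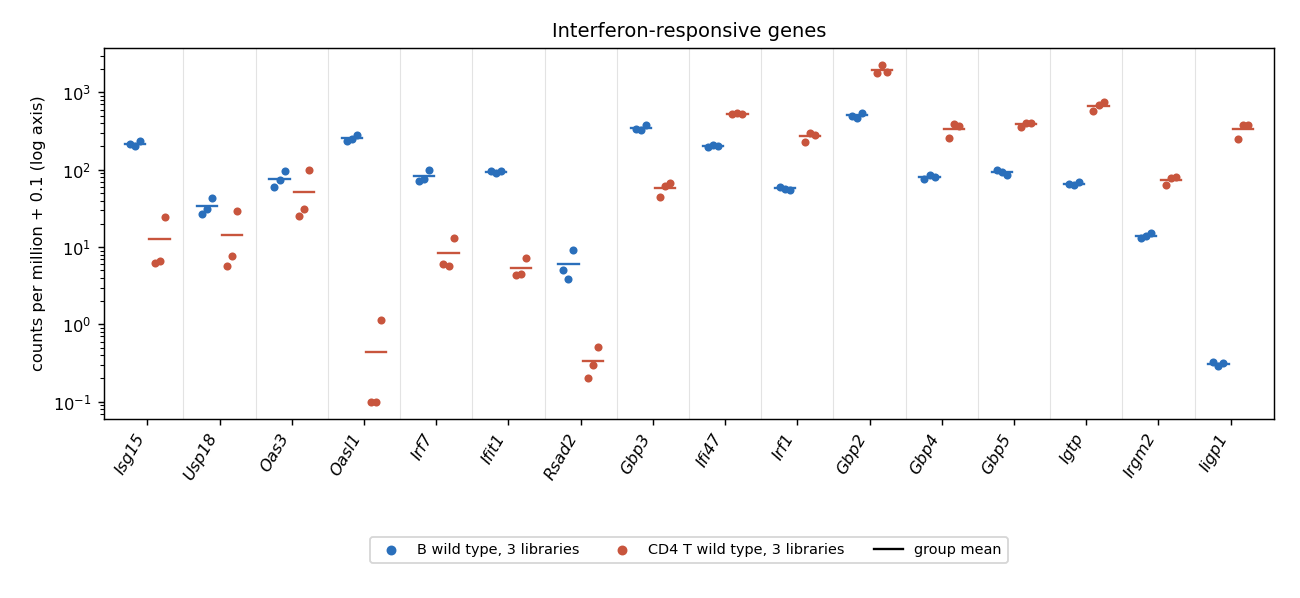
Each point is the level of a gene in 1 library, as CPM + 0.1 on a log axis, for 16 interferon-responsive genes, and the short lines are group means. Isg15, Irf7, Ifit1 and Gbp3 lie higher in B cells and Gbp2, Igtp and Iigp1 higher in T cells, and 1 T point stands apart from the other T points in Isg15, Usp18 and Oas3.

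Promoter letters of both kinds were set side by side. The core of the interferon-stimulated response element was searched as GAAANNGAA and the gamma-activated site as TTCNNNGAA, a palindrome, both on either strand. The first stood in 8 of 15 windows of the genes 2-fold higher in B (53.3%), in 3 of 4 windows of the genes 2-fold higher in T, and in 8.56% of all windows. The second stood in 1 of those 15 windows, in 2 of those 4, and in 8.3% of all windows. In both GTPase families together the first stood in 10 of 11 windows and the second in 6 of 11. Those 11 windows include Gbp3 and Gbp2b, which were higher in B, and Gbp7, which was not called. Gbp2, Igtp and Irgm2 are also among the 4 windows of genes higher in T. The sets were drawn from calls in these same data or after values had been seen, so the counts only describe them. A match is a description of the sequence, not a binding site. The stretches of Isg15 (chr4:156200856-156200916, minus strand) and Ifit1 (chr19:34640760-34640833, plus strand) stand for the genes higher in B cells, and that of Igtp (chr11:58199491-58199550, plus strand) for the genes higher in T cells; capitals mark the matches, which overlap each other in Isg15 and Ifit1.
Isg15: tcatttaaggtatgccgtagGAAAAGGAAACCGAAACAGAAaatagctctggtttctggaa
Ifit1: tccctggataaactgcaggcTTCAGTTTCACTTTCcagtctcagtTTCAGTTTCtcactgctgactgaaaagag
Igtp: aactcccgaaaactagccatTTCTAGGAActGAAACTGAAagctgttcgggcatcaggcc
In Igtp the gamma-activated letters come first and the interferon-stimulated letters follow.

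Toll-like receptor genes, the route by which LPS acts, were higher in B cells. Of 30 tested, 25 were higher in B, 18 by 2-fold or more, 4 were higher in T and 1 was not called, with a median of 1.73. Cd180 and Ly86, which encode RP105 and its partner MD-1, were among the highest of them: Cd180 stood at 224, 209 and 237 CPM in the B libraries and 1.45, 2.22 and 1.24 CPM in the T libraries, and Ly86 averaged 120.1 ± 2.79 against 1.64 ± 0.64 CPM. Tlr4 stood at 21, 18.6 and 20.8 CPM in the B libraries and 0.932, 0.303 and 0.518 CPM in the T libraries (log2 fold change 5.08, SE 0.23, edgeR adjusted p = 3.9e-11), and its partner Ly96 averaged 6.44 ± 1.34 against 1.03 ± 0.472 CPM. The nucleic acid receptors Tlr7 and Tlr9 averaged 181 ± 9.85 against 5.61 ± 2.18 CPM and 87.5 ± 9.25 against 0.859 ± 0.306 CPM, and Unc93b1, which carries them to endosomes, 636 ± 13.6 against 22.3 ± 4.65 CPM. Of the 4 genes higher in T cells, the adaptor Myd88 averaged 50.5 ± 4.796 against 60 ± 2.68 CPM, a call lost without the second B library, and the ubiquitin ligase Traf6 38 ± 3.99 against 64.8 ± 4.197 CPM. Of 29 NF-kB genes, 17 were higher in B, 7 in T and 5 were not called, with a median of 0.34. Nfkb1 and the feedback inhibitors Nfkbia and Tnfaip3 averaged 1275 ± 93.4 against 719 ± 29.4 CPM, 325 ± 26.2 against 93.2 ± 2.74 CPM and 226 ± 14.2 against 66.9 ± 3.08 CPM, and Bcl3 109.5 ± 7.84 against 14 ± 1.59 CPM. Rela was higher in T cells, at 113 ± 3.697 against 173 ± 10.8 CPM, and Rel was among the genes nearest to equal, at 117, 112 and 93.9 CPM in the B libraries and 111, 109 and 107 CPM in the T libraries.

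Class switch and plasma cell genes were higher in B cells, although the immunoglobulin constant genes were not matched in the files and are not analysed here. Of 30 tested, 21 were higher in B, 11 by 2-fold or more, and 6 in T, with a median of 0.67. Ung, a DNA repair enzyme, averaged 46.4 ± 4.75 against 40 ± 2.802 CPM, a call lost under 6 of 13 alternative settings. Mzb1, a chaperone of antibody assembly, stood at 282, 301 and 347 CPM in the B libraries and 0.828, 1.11 and 2.69 CPM in the T libraries. Prdm1, a repressor that promotes plasma cell formation, averaged 18.8 ± 5.24 against 0.342 ± 0.0539 CPM. Xbp1 averaged 314 ± 12.3 against 158 ± 15 CPM, and Jchain stood at 3.35, 4.52 and 5.29 CPM with 0 counts in T cells. Of 19 IL-4 and STAT6 genes, 10 were higher in B, 6 in T and 3 were not called, with a median of 0.12. The shares over all genes were 34% higher in B and 35.5% higher in T. Il4ra, the receptor that IL-4 itself induces, stood at 1039, 991 and 911 CPM in the B libraries and 232, 241 and 257 CPM in the T libraries (log2 fold change 2.01, SE 0.06, edgeR adjusted p = 1.8e-13). Fcer2a, the low-affinity IgE receptor CD23, Nfil3 and Il4i1 averaged 569.6 ± 43.1 against 9.71 ± 1.83 CPM, 320.4 ± 26.2 against 18.5 ± 2.65 CPM and 5.77 ± 0.713 against 0 CPM. Stat6 itself was higher in T cells, at 197 ± 10.1 against 322 ± 5.94 CPM.

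Transcription factors fell on both sides, with large differences in each direction. Among all genes, 34% were called higher in B and 35.5% higher in T. Of 45 lineage and effector factors tested, 19 were higher in B, 24 in T and 2 were not called (Irf8 and Foxo1), with a median of -0.34 and a median size of 3.05, against 0.41 over all genes. Irf4, needed by both lineages after receptor signalling, stood at 101, 111 and 88.2 CPM in the B libraries and 411, 492 and 478 CPM in the T libraries (log2 fold change -2.20, SE 0.09, edgeR adjusted p = 1.2e-08). Irf8 stood at 445, 437 and 453 CPM in the B libraries and 227, 360 and 461 CPM in the T libraries and differed by 0.35, with T libraries on both sides of the B level. Tbx21, the factor of type 1 helper cells, stood at 0.67, 0.565 and 0.331 CPM in the B libraries and 45.4, 97.2 and 114 CPM in the T libraries, Gata3 at 13.5, 11.4 and 13.3 CPM with 0 counts in B, and Eomes averaged 0.29 ± 0.236 against 13.5 ± 4.403 CPM. Bcl6, the germinal centre repressor, stood at 39.5, 24.9 and 46.9 CPM in the B libraries and 7.46, 7.17 and 5.28 CPM in the T libraries. Spi1 and Spib, related ETS factors, averaged 63.6 ± 3.801 against 0.754 ± 0.434 CPM and 126 ± 7.45 against 1.53 ± 0.8 CPM. Satb1, Myb and Tox were higher in T, at 85.9 ± 23.2 against 248 ± 19.6 CPM, 15.7 ± 0.822 against 129.7 ± 11 CPM and 0.242 ± 0.115 against 48.8 ± 8.72 CPM. Foxp3, the regulatory T cell factor, stood at 2.17, 1.41 and 1.14 CPM in T cells and had 0 counts in B.

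Division and growth genes were shared at close to the same level. The counts below stand beside 34% of all genes called higher in B and 35.5% higher in T. Of 58 cell cycle genes, 30 were higher in T cells, 11 in B and 17 were not called, 4 of them by 2-fold or more, with a median of -0.15. With all 24 libraries in the fit, 13 were higher in T. Mki67 stood at 1936, 1804 and 1734 CPM in the B libraries and 2327, 2300.3 and 2321 CPM in the T libraries (log2 fold change -0.34, SE 0.04, edgeR adjusted p = 5.6e-06), a call lost in that fit, and Top2a averaged 1779.9 ± 40.5 against 2094 ± 82.7 CPM. Cdk4 stood at 396, 402 and 394 CPM in the B libraries and 389.7, 409.8 and 392 CPM in the T libraries, with overlapping groups. The 4 larger differences were those of Cdkn1a, a cell cycle inhibitor, at 2.23, 1.602 and 1.76 CPM in the B libraries and 28.4, 32.7 and 45.9 CPM in the T libraries, Cdk6, a partner of D cyclins, at 7.56 ± 0.9 against 21.2 ± 0.945 CPM, E2f7 at 12.4 ± 0.55 against 27.5 ± 3.302 CPM, and Mybl2, the only one higher in B, at 319 ± 21.1 against 105 ± 4.34 CPM. Of 35 MYC and ribosome biogenesis genes, 22 were higher in B, 5 in T and 8 were not called, with a median of 0.21. Myc itself was higher in T cells, at 206, 193 and 194 CPM in the B libraries and 339, 344 and 349 CPM in the T libraries (log2 fold change -0.80, SE 0.05, edgeR adjusted p = 1.1e-09), whereas Ncl and Fbl, which act in the nucleolus, averaged 5786 ± 217 against 4309.6 ± 158 CPM and 185 ± 6.74 against 142 ± 8.94 CPM. MHC class I genes fell on both sides, with 6 of 17 higher in B, 6 in T and a median of 0.05 (-0.03 with library totals). Their median size was 0.48, against 0.41 over all genes, so single members were no closer than other genes. H2-K1 averaged 1818 ± 117 against 1106 ± 63.8 CPM and Nlrc5, their activator, 243 ± 6.52 against 436 ± 34.5 CPM. The 10 genes with the most counts were nearly the same in both cells, led by Eef1a1 (16225 ± 196 against 10154 ± 754 CPM), Eef2 (9099.5 ± 95.5 against 7601 ± 98.2 CPM) and Hsp90ab1 (7809.9 ± 221 against 6249.9 ± 57.6 CPM), and 8 of them were shared. Cd74 and Rpl13a were among the 10 of B cells alone, and Ldha and Pkm among those of T cells alone. These ranks are of counts and not of levels per length.

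Homing, cytokine signal and survival genes were mixed. Their counts were near the shares over all genes, 34% called higher in B and 35.5% higher in T, or not far from them. Of 33 chemokine receptor and adhesion genes, 13 were higher in B and 16 in T, with a median of -0.41. Cxcr5, which guides B cells to follicles, stood at 161, 153 and 165 CPM in the B libraries and 2.69, 4.55 and 6.32 CPM in the T libraries (log2 fold change 5.14, SE 0.16, edgeR adjusted p = 5.8e-10). Ccr7, which guides cells to T cell zones, stood at 50, 52 and 46.5 CPM in the B libraries and 400.2, 359 and 431 CPM in the T libraries (log2 fold change -3.00, SE 0.07, edgeR adjusted p = 1.3e-13). S1pr1, the exit receptor, and its activator Klf2 were higher in B, at 30 ± 3.11 against 4.38 ± 1.92 CPM and 62 ± 5.26 against 21 ± 6.11 CPM. Cd44, which the T cells were selected to lack, averaged 174 ± 10.7 against 66.2 ± 15.5 CPM. Of 31 JAK, STAT and SOCS genes, 13 were higher in T, 7 in B and 11 were not called, with a median of -0.15. Jak2 stood at 143, 134 and 142 CPM in the B libraries and 542, 597 and 599 CPM in the T libraries, and Socs3 averaged 18.1 ± 4.22 against 5.304 ± 0.311 CPM. Of 25 BCL2 family and death receptor genes, 11 were higher in B and 10 in T, with a median of 0.11. Bcl2 averaged 11.1 ± 0.906 against 27.1 ± 1.8 CPM and Bcl2a1d 80.9 ± 5.64 against 9.15 ± 1.5 CPM, a member of a near-identical gene family whose split is uncertain. Mcl1 was not called, at 175 ± 9.56 against 165 ± 3.47 CPM. Tnfrsf1a, a receptor of TNF, averaged 0.0314 ± 0.0544 against 23.3 ± 0.392 CPM, with 1 count over all B libraries, while Tnfrsf1b averaged 43.9 ± 2.26 against 51.6 ± 4.04 CPM.

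Reported targets of miR-155, which WT cells of both kinds carry the gene for, fell on both sides. Among all genes, 35.5% were called higher in T and 34% higher in B. Of 42 tested, 25 were higher in T, 12 by 2-fold or more, 8 in B and 9 were not called, with a median of -0.38. Inpp5d, the phosphatase SHIP1, stood at 374, 367 and 352 CPM in the B libraries and 141, 139 and 147 CPM in the T libraries (log2 fold change 1.35, SE 0.05, edgeR adjusted p = 3e-12). Jarid2 and Picalm averaged 66.6 ± 0.701 against 127 ± 15 CPM and 118 ± 4.33 against 161 ± 14.7 CPM, Socs1 50.1 ± 4.09 against 38.5 ± 3.34 CPM, and Bach1 was not called, at 11.2 ± 0.381 against 11.8 ± 1.24 CPM. Several of these genes are lineage genes, such as Spi1 (6.37) and Ctla4 (-7.69). The same comparison in KO cells gave log2 fold changes of 1.27 for Inpp5d, -0.83 for Jarid2, -0.08 for Picalm and 0.39 for Bach1. Whether WT and KO values differ was not tested here.

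The comparison was repeated in the KO libraries, 3 of B cells and 3 of CD4 T cells with the same stimuli, in which 7726 of 10683 genes were called (72.3%). Of the 10508 genes tested in both genotypes, 7307 were called in WT and 7605 in KO cells. Both called 6551 in the same direction, which is 89.7% of the WT calls and 86.1% of the KO calls, and 10 in opposite directions. Of 2483 genes that differed by 2-fold or more in WT cells, 2443 (98.4%) were called in the same direction in KO cells and 0 in the opposite. The KO libraries share the stimulus, the organ and the sex difference of the WT libraries, so they repeat the measurement and not the design.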

How the data were processed

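Messenger RNA of 6 wild-type libraries (3 B cell, 3 CD4 T cell) was analysed, with 6 KO libraries beside them, all grouped by title. The deposited files hold raw counts of reads per gene symbol (20673 genes), made by the authors with cutadapt and STAR on mm9, per the submitters' processing notes. Not given in the sources used here is how reads were assigned to genes, by strand or when shared. Lines naming no gene (51.8 to 53% of counts fell in no feature) were left out. edgeR 4.0.16 in R 4.3.3 was used with TMM, filterByExpr and the robust quasi-likelihood F test, two-sided, over the 6 libraries, with Benjamini-Hochberg adjustment over all genes and a threshold of 0.05; SE is the log2 fold change over the root of F. The script was tested on simulated data. Intervals are exact at 95% and, like the floor of 3 counts over a group, cover counting error only. Marker sums were set beside each other by an exact permutation test, which cannot go below 0.1. DESeq2 1.42.0, other scalings and filters, and leaving out each library were tried.

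The comparison, the 24 lists and 13 marker lists were chosen with earlier results of these data known. Of 814 list symbols, 806 matched. Named genes were the 12 highest in each cell type (mean of at least 20 CPM, no overlap, predicted genes passed over), core list members, up to 5 called members per list and direction at 5 CPM or more, the 10 with the most counts and the 10 list members nearest to equal; other genes, among them Tpi1, Pgk1, Pfkp, Hk1, Aldoa, Cd2, Thy1, Lta, Ltb, Nkg7, Il10, Usp18, Oas3, Ifit1, Satb1, Eomes, Foxp3, Rfx5, Bcl10, Scd2, Top2a and Cd44, were chosen after their values were seen. Some genes of the lists are counted but not reported here by name. Promoter windows are from RefSeq on GRCm38.p6, and no coordinate is from the files.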

Additional observations from a re-analysis of the deposited data

How the results depend on the processing

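The counts of called genes, in total and by direction, with and without the 2-fold floor, stayed within 1.5 times under all 13 alternatives tried. Called genes numbered 6687 by DESeq2, 7351 with library totals, 7352 with size factors of the RLE kind, 7949 with no filter, 7374 with a filter of 1 CPM in 3 libraries, 6881 with all 24 libraries in the fit, and 6871 to 7258 with 1 library left out. Library totals moved the median log2 fold change of all genes from -0.003 to -0.08 and the share of calls higher in B from 48.9 to 41.9%. With a replicate block, 7481 genes were called; same-numbered B and T libraries had correlations of deviations of 0.032, 0.117 and 0.121, and the numbers come from no shared animal or batch in the labels, so they were not taken to pair the libraries. Of 311 named genes tested, 276 kept their call and direction under all 13 alternatives and 35 changed their call under at least 1; none changed direction past the threshold. The changed calls were mostly of small differences, such as Hspa8 at a log2 fold change of 0.10. Some were of large differences with uneven T libraries, such as Fam71b (-12.55) and Lif (-11.95). Depth limits genes near 1 CPM.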

Other observations

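Other gene families were looked at after their values had been seen, and are given as values. The genes of the NADPH oxidase, the enzyme that makes superoxide in phagocytes, and of its proton channel were higher in B cells in 7 of 7 members, with a median log2 fold change of 2.95. Cybb, the catalytic chain, stood at 263, 240.5 and 284 CPM in the B libraries and 1.86, 2.32 and 5.904 CPM in the T libraries. The cytosolic subunits Ncf1 and Ncf4 averaged 283 ± 6.04 against 27.7 ± 6.1 CPM and 102 ± 1.79 against 17.2 ± 2.48 CPM, and the shared chain Cyba, which other oxidases also use, 272 ± 7.85 against 114 ± 9.72 CPM. Hvcn1, the voltage-gated proton channel, averaged 162 ± 7.29 against 20.9 ± 1.299 CPM. Summed macrophage and monocyte markers (15 genes) were 17.3 to 23.6 CPM in B and 6.63 to 9.53 CPM in T libraries, and dendritic cell markers (10 genes, with Clec9a, Clec10a and Siglech at 0 in B) 41.5 to 57.0 CPM in B and 7.77 to 13.4 CPM in T libraries. In B libraries the largest macrophage member was Adgre1 (14.7, 14.1 and 8.6 CPM), while Lyz2, Csf1r, Cd14 and Fcgr1 were at most 0.4411 CPM. Flt3 (33.7, 33.8 and 48.9 CPM) made up most of the dendritic cell sum there, and Fscn1 was higher in T. The part of macrophages, monocytes and dendritic cells in the result was not tested. All 9 tested Fc receptors and Fc receptor-like proteins were higher in B cells, with Fcgr2b at 117 ± 15.2 against 0.581 ± 0.234 CPM, Fcrl5 at 114 ± 5.07 against 0.308 ± 0.104 CPM and Fcrla at 33 ± 8.52 against 0.276 ± 0.239 CPM.

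GIMAP GTPases, which keep resting lymphocytes alive, fell on both sides: of 8 tested, 3 were higher in B, 2 in T and 3 were not called, with a median of 0.02. Over all genes tested, 34% were called higher in B and 35.5% higher in T, so these few counts say little about the family. Gimap3 stood at 244, 247 and 254 CPM in the B libraries and 253, 255 and 251 CPM in the T libraries, with overlapping groups, and Gimap9 at 35.1, 39.9 and 42 CPM in the B libraries and 119, 121 and 121 CPM in the T libraries (log2 fold change -1.63, SE 0.07, edgeR adjusted p = 2.1e-11). Gimap7 differed by -1.03 and was not called (edgeR adjusted p = 0.083).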
